A study of Homo sapiens with 11 samples.

Results

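Keratins form the intermediate filaments of epithelial cells, and 9 keratin genes were followed in RNA-Seq of prostate cancer cells with and without upregulation of the sialyltransferase ST6GAL1. The 9 genes are KRT7, KRT8, KRT18 and KRT19 of simple and luminal epithelium, KRT5 and KRT15 of basal epithelium, the stress keratin KRT17, and KRT80 and KRT81. They were found by their Entrez identifiers in both count tables, and they are 9 of the 28395 genes that each table lists. All 9 were present in both tables, although not all of them had reads.

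The samples were PC3 and DU145, human prostate cancer cell lines. Each line was transduced with lentivirus, carrying either a negative control (Lenti-ORF control) or ST6GAL1 (ST6GAL1 OE), and stable populations were compared, so the control cells had also been through transduction. The libraries were 3 PC3 control, 3 PC3 ST6GAL1 OE, 3 DU145 control and 2 DU145 ST6GAL1 OE, and they are labelled as biological repeats. The DU145 ST6GAL1 OE libraries are numbered 2 and 3, and no library numbered 1 of that group was analysed here. Total counts were between 14737057 and 18201359 in PC3 and between 13194485 and 18082248 in DU145, so that a count of 3, taken as the floor, is worth between 0.165 and 0.227 CPM (counts per 1000000 counts of the library). ST6GAL1 checked the labels. Its counts were 53, 33 and 47 in PC3 control against 490, 575 and 516 in PC3 ST6GAL1 OE, and 216, 206 and 152 in DU145 control against 5376 and 5350 in DU145 ST6GAL1 OE. The 2 DU145 ST6GAL1 OE libraries differed more from each other than any other pair of replicates did, with a chi-square per degree of freedom of 13.3 over genes, against 1.39 to 5.46 for the other pairs.

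Keratins come in 2 types. A filament is built from heterodimers of a type I and a type II protein, so cells make both types together. Of the genes followed here, 5 are type II (KRT5, KRT7, KRT8, KRT80 and KRT81) and 4 are type I (KRT15, KRT17, KRT18 and KRT19). In the prostate, luminal cells are known for the KRT8 and KRT18 pair, and basal cells for KRT5. The stress keratin KRT17 is known from wounded and hyperproliferative epithelium, and KRT81 is a keratin of the hair cortex. Keratin profiles are used in pathology to trace the tissue and layer that an epithelial tumour came from.

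On the human genome (hg38, GENCODE annotation) the type II genes and KRT18 lie in the cluster on chromosome 12, and the other 3 type I genes lie on chromosome 17. KRT18 (chr12:52948871-52952906, plus strand) is the type I gene inside the type II cluster, and its annotated span overlaps that of KRT8 (chr12:52897187-52949954, minus strand) by 1084 bases. KRT15 (chr17:41513745-41522529) and KRT19 (chr17:41523617-41528308), both on the minus strand, are neighbours with 1087 bases between them. KRT7 is at chr12:52232520-52252186 on the plus strand, where its end overlaps the annotated start of KRT86, KRT80 at chr12:52168996-52192014 and KRT5 at chr12:52514575-52520530, both on the minus strand, and KRT17 is at chr17:41619442-41624842 on the minus strand. All values below cover the whole gene.

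KRT81 (chr12:52285913-52291534, minus strand) is the member whose reads are hardest to assign, because it has a near-identical neighbour. It lies within the annotated span of KRT86 (chr12:52249300-52309163, plus strand), another hair keratin. Over 1279 coding bases compared, which leave out the last coding exon because its length differs, the genes differed at 36, an identity of 97.2%, and their coding exons 2 and 3 were identical. Of all stretches of 75 bases in the exons of KRT81, the length of the reads, 64.6% occur at no other place in the genome. A further 33.8% occur also within the annotated span of KRT86. The pseudogene KRT87P, which overlaps that span, holds 1.4%. The share of stretches found at no other place was 100% for KRT7, KRT15, KRT19 and KRT80, 96.9% for KRT18, 96.3% for KRT5, 93.8% for KRT17 and 83.4% for KRT8. The window below, from coding exon 1, shows a stretch that KRT81 shares. It is the same in KRT81 (chr12:52291331-52291405, minus strand) and KRT86 (chr12:52301977-52302051, plus strand), so that a read from it cannot be given to either gene. The sequence runs 5′ to 3′ on the coding strand.
Shared by KRT81 and KRT86: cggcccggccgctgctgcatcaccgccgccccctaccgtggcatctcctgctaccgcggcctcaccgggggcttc

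Of the members, 7 were read in both lines, and the basal and stress keratins were low or absent. KRT5, the type II keratin of basal cells, had 0 counts in all 11 libraries, which at these depths allows up to the 3-count floor given above in each. KRT17 had 0 counts in all 5 DU145 libraries and between 1 and 20 in the PC3 libraries. KRT14, the usual type I partner of KRT5, had at most 2 counts in a library. TP63, the basal transcription factor, had at most 8. Basal markers other than keratins were uneven. LAMB3 was at 218 normalized CPM in PC3 control and 205.5 in DU145 control, and NGFR at 0.64 and 2.0. ITGB4 and DST had enough reads to be tested in both lines. Among keratins, both lines carried simple epithelial mRNA with next to no basal pair, and PC3 alone had KRT81 at a high level. The members together took between 0.161% and 0.192% of all counts in PC3, and between 0.171% and 0.213% in DU145.

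**Figure D1:**
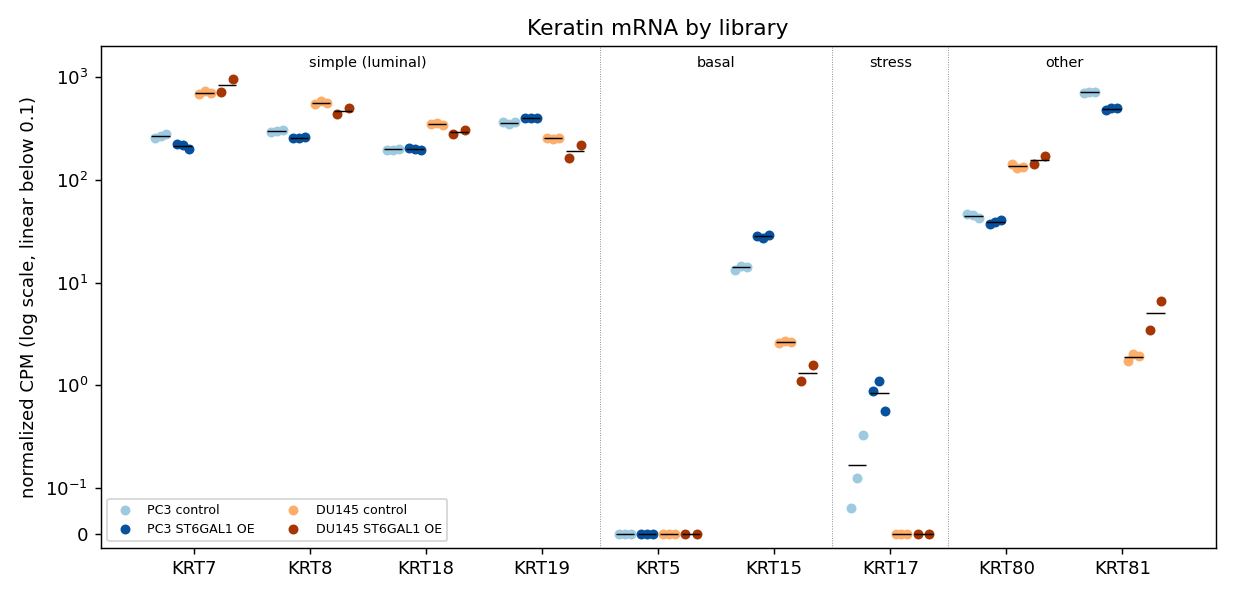
Normalized CPM of each keratin (vertical axis, log scale, linear below 0.1) in every library, with a bar at the mean of each group of PC3 control, PC3 ST6GAL1 OE, DU145 control (3 libraries each) and DU145 ST6GAL1 OE (2 libraries). KRT5 lies at 0 in all libraries and KRT17 at 0 in DU145, while KRT81 has a mean of 708 normalized CPM in PC3 control and of 1.90 in DU145 control.

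Levels of different genes were compared per length, as normalized CPM per kilobase of the canonical transcript. This length makes no allowance for stretches that occur elsewhere in the genome. The share found at no other place was 64.6% for KRT81, 83.4% for KRT8 and 100% for KRT19. The order, shares and ratios of these genes may therefore depend on how shared reads were counted, which was not tested. In PC3 control cells KRT81 stood highest, at 367 ± 5.65 CPM per kb (SD, n = 3), followed by KRT19 at 258 ± 8.62. KRT8 and KRT7 came next, at 167 ± 3.83 and 164 ± 6.83, and their libraries overlapped. KRT18, the partner of KRT8, was at 139 ± 2.05 CPM per kb. There was then a wide step down to KRT80 at 11.6 ± 0.535 and KRT15 at 8.23 ± 0.372, and KRT17 was at 0.112 ± 0.0924. Apart from KRT8 and KRT7, no neighbours in this order overlapped in PC3 control.

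In DU145 control cells the order was another one. KRT7, a simple epithelial type II keratin, stood highest at 433 ± 13.9 CPM per kb, followed by KRT8 at 316 ± 9.95, KRT18 at 247 ± 3.87 and KRT19 at 182 ± 2.80 (SD, n = 3). KRT80 was at 35.0 ± 1.76, KRT15 at 1.54 ± 0.0457 and KRT81 at 0.984 ± 0.0837. No neighbours among these 7 overlapped. In DU145 ST6GAL1 OE (n = 2) the order of the upper 5 was the same, and KRT81 at 2.62 ± 1.16 stood above KRT15 at 0.777 ± 0.193. In PC3 ST6GAL1 OE (n = 3), KRT19 at 286 ± 2.09 stood above KRT81 at 254 ± 6.71, and KRT15 at 16.5 ± 0.510 stood above KRT80 at 10.1 ± 0.483. The order of KRT19 and KRT81 is not settled by this, because reads from the shared stretches of KRT81 may be missing from its counts. The group means also placed KRT18 (141 ± 1.94) above KRT7 (131 ± 8.18) there, and no neighbours overlapped.

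The next comparison was between the lines without overexpression. Lines and anything else that differed between their libraries, such as a sequencing run, cannot be told apart in it. Differences between lines were common, since 64.6% of 14246 genes tested were called (31.8% higher and 32.8% lower in DU145), where a call is an adjusted p under 0.05 with a log2 fold change beyond 0.58. Of the 7 members tested, 4 were called higher in DU145 control than in PC3 control and 2 lower, a share that is to be read against that background.

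The simple keratins were mostly higher in DU145. KRT7 was at 682, 727 and 702 normalized CPM in the DU145 control libraries and at 254, 269 and 276 in the PC3 control libraries, a log2 fold change of 1.41 (standard error (SE) 0.0480, adjusted p = 1.32e-20). KRT8 differed by 0.92 (SE 0.0456, adjusted p = 7.44e-17) and KRT18 by 0.83 (SE 0.0437, adjusted p = 3.03e-16) on the log2 scale. KRT80, a type II keratin found in many epithelia, differed by 1.60 (SE 0.0552, adjusted p = 1.78e-20). KRT19, the type I keratin that lacks most of the usual tail domain, went the other way with a log2 difference of -0.50 (SE 0.0446, adjusted p = 3.12e-11), which is short of the fold threshold.

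The 2 members called lower in DU145 were KRT15 and KRT81. KRT15 was at 2.58, 2.73 and 2.62 normalized CPM in DU145 control and at 13.4, 14.6 and 14.3 in PC3 control, a log2 difference of -2.41 (SE 0.126, adjusted p = 2.86e-16). KRT81 was at 1.72, 2.03 and 1.95 normalized CPM in DU145 control and at 698, 720 and 707 in PC3 control. Its log2 difference was -8.53 (SE 0.0799, adjusted p = 8.27e-33), and no other member differed by as much. KRT81 thus made up 32.9% ± 0.578 of the members' summed CPM per kb in PC3 control and 0.0810% ± 0.00568 in DU145 control (SD, n = 3). KRT7 made up 14.7% ± 0.429 and 35.6% ± 0.533 in the same order.

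**Figure D2:**
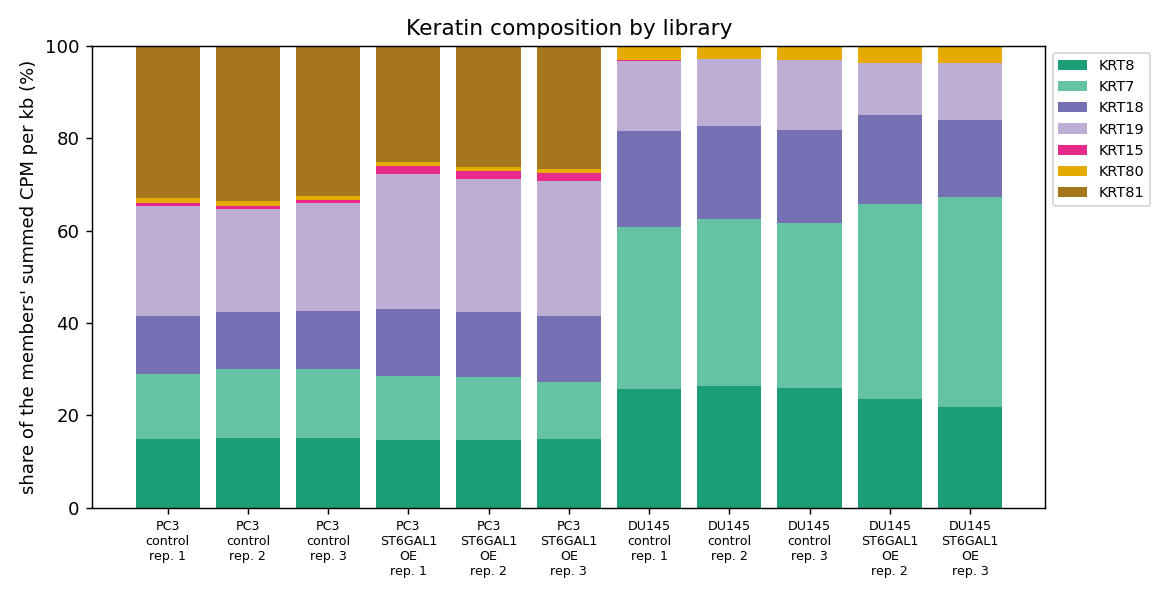
Share of each keratin in the members' summed CPM per kb (vertical axis, percent), with a stacked bar for each of the 11 libraries. KRT81 is the widest band in the PC3 control libraries (32.4% to 33.5%), is narrower in the PC3 ST6GAL1 OE libraries (25.0% to 26.5%), and is too thin to see in DU145, where KRT7 is the widest band.

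The question the study put to these libraries was how ST6GAL1 changes prostate cancer cells. In PC3, upregulation of ST6GAL1 came with a higher level of the basal keratin KRT15 and lower levels of KRT81 and of the type II simple keratins. Only KRT15 passed the call rule. Over all genes tested in PC3 5.38% were called, 3.61% higher and 1.76% lower, and 1 of the 7 members tested was called, in the higher direction. By adjusted p alone, with no fold threshold, 6 of the 7 passed, 2 higher and 4 lower, against 37.3% of all genes (18.8% higher and 18.5% lower). The median log2 fold change was -0.20 over the 7 members and -0.002 over all 13544 genes tested. KRT5 and KRT17 were below the filter on low counts. Where a gene is said below not to overlap between groups, this describes its libraries only. The share of all genes without overlap was not computed. In these bulk samples, fewer cells with a keratin and less of its mRNA per cell cannot be told apart.

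KRT15 is a type I keratin of basal cells and of stem cells in the hair follicle. Its counts were 239, 231 and 219 in the PC3 control libraries and 421, 494 and 457 in the PC3 ST6GAL1 OE libraries, or 13.4, 14.6 and 14.3 against 28.6, 27.3 and 28.9 normalized CPM. All 3 ST6GAL1 OE libraries lay above all 3 control libraries, with a narrow spread in both groups. The log2 fold change was 1.00 (SE 0.0708, adjusted p = 3.24e-15), and it was called under all 12 alternatives. KRT15 rose from 0.738% ± 0.0287 to 1.68% ± 0.0589 of the members' summed CPM per kb (SD, n = 3).

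KRT81 went down. It was at 698, 720 and 707 normalized CPM in PC3 control and at 476, 497 and 500 in PC3 ST6GAL1 OE, with no overlap. The log2 fold change was -0.53 (SE 0.0251, adjusted p = 7.74e-21), so the fall passed the test on p and remained short of the fold threshold of 0.58. KRT86, the near-identical neighbour, was at 110, 108 and 90 counts in PC3 control and at 52, 76 and 60 in PC3 ST6GAL1 OE, and it was called lower (log2 fold change -0.70, SE 0.139, adjusted p = 8.05e-05). Counts of KRT86 were 0.887% ± 0.0596 of those of KRT81 in PC3 control and 0.782% ± 0.0543 in PC3 ST6GAL1 OE (SD, n = 3). How reads from the shared stretches were counted is not given in the sources used here, and their part in the KRT86 values was not tested.

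The type II simple keratins fell by smaller amounts. KRT7 was at 254, 269 and 276 normalized CPM in control and at 224, 219 and 198 in ST6GAL1 OE, a log2 fold change of -0.32 (SE 0.0375, adjusted p = 3.04e-07). KRT8 was at 291, 299 and 305 against 256, 257 and 258, a log2 fold change of -0.21 (SE 0.0277, adjusted p = 3.93e-08). Neither gene overlapped between the groups, and both changes were below the fold threshold.

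The type I simple keratins did not follow. KRT18, which pairs with KRT8, was at 195, 195 and 200 normalized CPM in control and at 202, 198 and 197 in ST6GAL1 OE, and the groups overlapped (log2 fold change 0.02, SE 0.0296, adjusted p = 0.731). KRT19 was at 365, 345 and 367 against 401, 396 and 395, a rise of 0.15 on the log2 scale without overlap (SE 0.0268, adjusted p = 2.40e-05). KRT80 was at 46.1, 45.8 and 42.4 against 36.9, 39.2 and 40.7, a log2 fold change of -0.20 (SE 0.0525, adjusted p = 0.00210). All of these were below the fold threshold.

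As KRT8 fell and KRT18 did not pass the test, the ratio of KRT8 to KRT18 per length was lower in PC3 with ST6GAL1 OE. It was 1.18, 1.22 and 1.21 without overexpression and 1.01, 1.03 and 1.04 with it, and the libraries did not overlap. The difference of the means was -0.176 (two-sided exact permutation p = 0.1, n = 3 and 3, which is the smallest p that 20 arrangements can give). The ratio of the type II to the type I members was 1.75 ± 0.0621 in control and 1.22 ± 0.0185 in ST6GAL1 OE (SD, n = 3). KRT81 was the highest type II member in both groups, at 367 CPM per kb in control and 254 in ST6GAL1 OE. The ratio without KRT81 was not computed.

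KRT17 was too low for the filter in PC3. Its counts were 1, 2 and 5 in control and 13, 20 and 9 in ST6GAL1 OE, so the groups did not overlap, but the highest control library and the lowest ST6GAL1 OE library were 4 counts apart. In sums these are 8 counts against 42, a ratio of normalized counts of 5.29 with a 95% exact interval from 2.45 to 13 that covers counting error only. In the fit without a filter on low counts its log2 fold change was 2.33 (SE 0.523, adjusted p = 7.65e-05). This is a level of 0.852 ± 0.269 normalized CPM in ST6GAL1 OE (SD, n = 3).

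In DU145, KRT81 and KRT15 moved the other way from PC3, and KRT8, KRT18 and KRT19 were lower with ST6GAL1 OE. Of all genes tested in DU145 8.94% were called, 4.33% higher and 4.61% lower, and 2 of the 7 members tested were called, KRT81 higher and KRT15 lower. By adjusted p alone 1 member passed higher and 4 lower, against 20.1% of all genes (10.7% higher and 9.42% lower). The median log2 fold change was -0.25 over the 7 members and -0.002 over all 13676 genes tested. The DU145 result rests on 2 ST6GAL1 OE libraries, and for all 7 members with reads replicate 3 was higher than replicate 2.

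KRT81 had 26, 32 and 26 counts in DU145 control and 54 and 119 with ST6GAL1 OE, or 1.72, 2.03 and 1.95 against 3.48 and 6.64 normalized CPM. Both ST6GAL1 OE libraries lay above all control libraries, and replicate 3 was further above replicate 2 than replicate 2 was above the controls. The log2 fold change was 1.43 (SE 0.277, adjusted p = 0.00376). Without ST6GAL1 OE replicate 3 it was 0.88 and without replicate 2 it was 1.80, each from a fit with 1 overexpression library, and without control replicate 2 the call was lost (log2 fold change 1.47, adjusted p = 0.0590, with a range over 11 alternatives from 5.83e-06 to 0.0590). The level after the rise, 5.06 ± 2.24 normalized CPM (SD, n = 2), is still far below that in PC3.

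The neighbour of KRT81 was low as well. KRT86 had 10, 5 and 7 counts in DU145 control and 15 and 19 in DU145 ST6GAL1 OE (log2 fold change 1.02, SE 0.416, adjusted p = 0.102, not called). Its counts were between 15.6% and 38.5% of those of KRT81 in the DU145 libraries.

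KRT15 was also low in DU145, at 39, 43 and 35 counts in control and 17 and 28 in ST6GAL1 OE, or 2.58, 2.73 and 2.62 against 1.10 and 1.56 normalized CPM. The groups did not overlap. The log2 fold change was -0.97 (SE 0.260, adjusted p = 0.0176). The call was lost with DESeq2 (adjusted p = 0.101) and without control replicate 1, control replicate 2 or ST6GAL1 OE replicate 2 (adjusted p = 0.0582, 0.0855 and 0.0887), and over all 11 alternatives the adjusted p ranged from 0.00771 to 0.101.

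The KRT8 and KRT18 pair was lower together in DU145. KRT8 was at 548, 583 and 559 normalized CPM in control and at 435 and 498 in ST6GAL1 OE, a log2 fold change of -0.27 (SE 0.0814, adjusted p = 0.0323). KRT18 was at 351, 353 and 343 against 281 and 303, a log2 fold change of -0.25 (SE 0.0733, adjusted p = 0.0260). Neither overlapped between the groups, both were below the fold threshold, and the ratio of KRT8 to KRT18 per length was 1.28 ± 0.0389 in control (n = 3) and 1.26 ± 0.0537 in ST6GAL1 OE (n = 2). The exact permutation test on this ratio gave p = 0.8 (two-sided), and 10 arrangements cannot give a p under 0.2. The ratio of the type II to the type I members was 1.77, 1.88 and 1.83 in DU145 control and 2.28 and 2.44 in DU145 ST6GAL1 OE, higher without overlap, where in PC3 it was lower. This difference was not tested.

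KRT19 was at 253, 248 and 256 normalized CPM in control and at 163 and 219 in ST6GAL1 OE, without overlap (log2 fold change -0.39, SE 0.111, adjusted p = 0.0336). Its size depended on the pair of ST6GAL1 OE libraries. It was -0.62, past both thresholds, without replicate 3, and -0.21 without replicate 2. With either left out, for KRT15 and KRT81 too, 1 library remains in the group, and it is assumed to vary like the control libraries, which then supply the spread. The values of p on KRT8, KRT18 and KRT19 in DU145 lay close to the threshold: they were not under 0.05 in 4, 3 and 4 of 11 alternatives, and ranged up to 0.130, 0.0999 and 0.154. Without control replicate 2 none of the 7 members had an adjusted p under 0.05 in edgeR's test.

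KRT7 and KRT80 overlapped between the DU145 groups. KRT7 was at 682, 727 and 702 normalized CPM in control and at 714 and 948 in ST6GAL1 OE (log2 fold change 0.25, SE 0.107, adjusted p = 0.137). KRT80 was at 143, 130 and 134 against 141 and 172 (log2 fold change 0.21, SE 0.0891, adjusted p = 0.114). In both genes replicate 2 was within the range of the controls and replicate 3 above it.

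**Figure D3:**
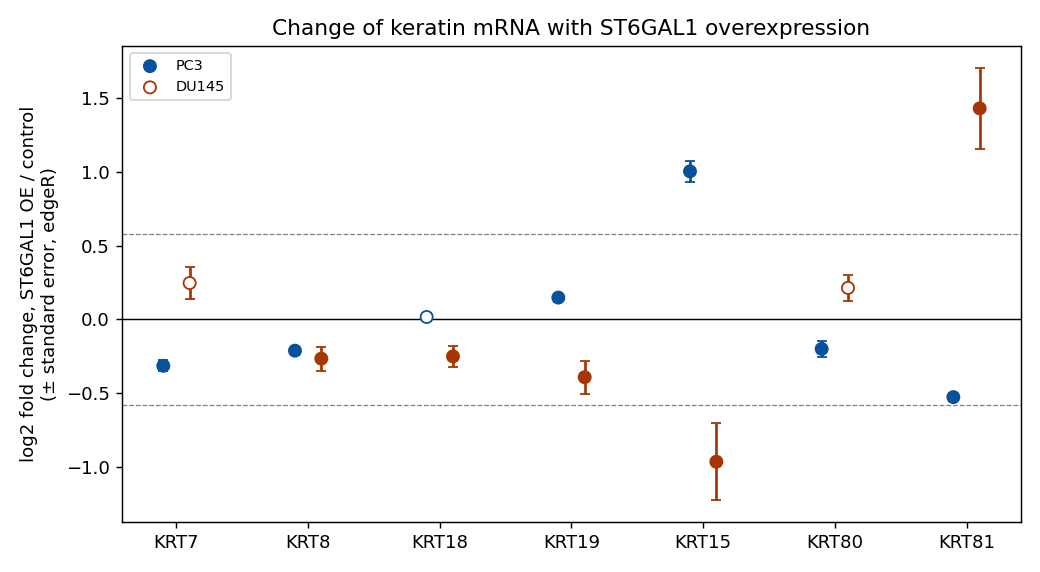
Log2 fold change of ST6GAL1 OE against control (vertical axis, with a standard error derived from edgeR's F) for the 7 keratins tested, in PC3 and DU145. Filled points have an adjusted p under 0.05 and open points do not, and the dashed lines mark the fold threshold of 0.58, which KRT15 passes upwards in PC3 (1.00) and downwards in DU145 (-0.97), and KRT81 upwards in DU145 (1.43).

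The difference between the lines was tested itself, in a fit of all 11 libraries, with the change in PC3 subtracted from the change in DU145. The level of ST6GAL1 differed too, at 32.5 normalized CPM in PC3 ST6GAL1 OE and 323 in DU145 ST6GAL1 OE (controls 2.71 and 12.9). Line and level of ST6GAL1 cannot be told apart in this test. Of 14952 genes 8.72% were called in this test, and 2 of the 7 members tested, KRT15 and KRT81. KRT15 differed by -1.97 (SE 0.220, adjusted p = 2.49e-06) and KRT81 by 1.97 (SE 0.241, adjusted p = 4.80e-05), and both were called under all 17 alternatives. All groups shared an estimate of the spread in this fit, to which the closer PC3 replicates contributed. These SEs were below those in DU145 alone (0.260 for KRT15 and 0.277 for KRT81), so the p-values of this fit may be too small. By adjusted p alone 6 of the 7 members passed, against 19.7% of all genes. The differences were 0.56 for KRT7 (adjusted p = 0.00966) and 0.41 for KRT80 (adjusted p = 0.00921), which were lower with ST6GAL1 OE in PC3. They were -0.27 for KRT18 (adjusted p = 0.00576) and -0.54 for KRT19 (adjusted p = 0.00477), which were lower with ST6GAL1 OE in DU145. KRT8, lower in both lines, had a difference of -0.06 (SE 0.0748, adjusted p = 0.645). KRT17 has no estimate, as DU145 had no reads of it. KRT86 differed by 1.72 (SE 0.378, adjusted p = 0.00279), in the direction of KRT81.

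**Figure D4:**
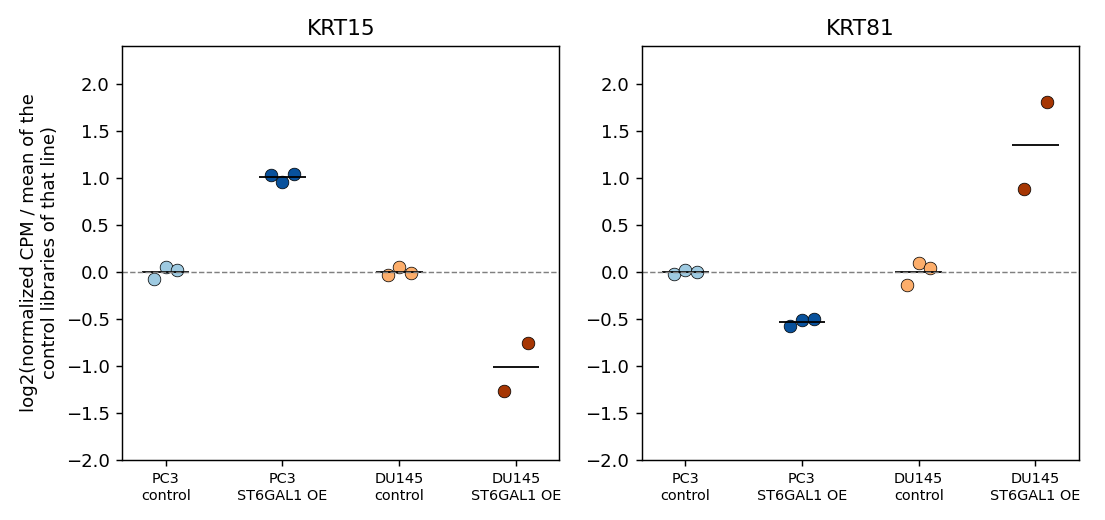
KRT15 (left) and KRT81 (right) in every library as log2 of normalized CPM over the mean of the control libraries of the same line (vertical axis), with a bar at the group mean. KRT15 lies above the controls in all 3 PC3 ST6GAL1 OE libraries and below them in both DU145 ST6GAL1 OE libraries, and KRT81 does the reverse.

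Of the other keratins few were read. Beside the members, the tables list 45 further keratin genes of the type I and type II lists, of which 21 had 0 counts in all libraries and 6 reached 10 counts in some library (KRT4, KRT10, KRT75, KRT83, KRT85 and KRT86). The 8 rows of keratin pseudogenes had at most 4 counts in a library. KRT4, a type II keratin of stratified mucosa, was the other keratin called in DU145, with 82, 113 and 85 counts in control and 12 and 16 in ST6GAL1 OE (log2 fold change -2.90, SE 0.247, adjusted p = 2.45e-06). In PC3 it had 0, 2 and 0 counts in control and 8, 8 and 7 in ST6GAL1 OE, below the filter. KRT75, a keratin of the hair follicle, had between 38 and 94 counts in the PC3 libraries and at most 1 in a DU145 library. In PC3 it did not pass the test (log2 fold change -0.35, SE 0.170, adjusted p = 0.104). KRT10, a keratin of the upper epidermis, was at 28.8 ± 0.985 normalized CPM in PC3 control and 26.6 ± 1.06 in DU145 control (SD, n = 3) and passed no test.

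Keratin filaments are anchored at desmosomes and hemidesmosomes. Of 20 anchor genes tested, 2 were called higher and 0 lower in PC3, against 3.61% and 1.76% of all genes. In DU145 2 of 20 were called higher and 2 lower, against 4.33% and 4.61% of all genes. In PC3 the desmosomal cadherins DSC2 (log2 fold change 1.01, SE 0.0385) and DSC3 (0.59, SE 0.0327) were called higher. DSC3 was below the fold threshold in 3 of 12 alternatives. In DU145 desmoplakin (DSP), which ties keratin filaments to the desmosome, was at 359 ± 25.7 normalized CPM in control (SD, n = 3) and at 13.2 ± 2.15 in ST6GAL1 OE (SD, n = 2), and it was called lower (log2 fold change -4.76, SE 0.12, adjusted p = 4.88e-11). In PC3 DSP was at 30.9 ± 2.18 normalized CPM in control and 35.5 ± 0.988 in ST6GAL1 OE (SD, n = 3). This rise passed by adjusted p alone and was below the fold threshold (log2 fold change 0.20, SE 0.0583, adjusted p = 0.00598). DSC3 was called higher in DU145 (0.62, SE 0.129) and the adaptor SFN lower (-0.64, SE 0.146), both with calls that some alternatives ended (9 and 6 of 11 kept them).

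Of 17 genes of other intermediate filaments, 10 were tested in PC3 and 13 in DU145. In PC3 1 was called higher and 0 lower, against 3.61% and 1.76% of all genes. It was PRPH (peripherin, log2 fold change 0.62, SE 0.222, adjusted p = 0.0252), a call that 4 of 12 alternatives ended. In DU145 1 was called higher and 3 lower, against 4.33% and 4.61% of all genes. Those called lower were NES (nestin), NEFM and NEFL. They fell by 1.50, 1.19 and 1.10 on the log2 scale (adjusted p = 7.12e-07, 0.00117 and 0.00123). Vimentin (VIM), the filament of mesenchymal cells, was at 1190 ± 19.3 normalized CPM in PC3 control and 1231 ± 67.3 in DU145 control (SD, n = 3). Its log2 fold change was 0.14 (SE 0.0227, adjusted p = 5.59e-06) in PC3 and 0.08 (SE 0.0819, adjusted p = 0.523) in DU145.

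Of 26 regulators of epithelial keratins, 19 were tested in PC3 and 20 in DU145. In PC3 the transcription factors GRHL2 (log2 fold change 3.06, SE 0.250, adjusted p = 2.70e-13) and EHF (1.33, SE 0.0815, adjusted p = 3.99e-17), both known from epithelial cells, were called higher, and none was called lower. Of all genes 3.61% were called higher and 1.76% lower there. By adjusted p alone 5 regulators passed higher and 5 lower, against 18.8% and 18.5% of all genes. CEBPB was among the lower ones (-0.57, adjusted p = 2.61e-08), and the median of the 19 was -0.07. GRHL2 was at 0.632 ± 0.428 normalized CPM in control and 5.17 ± 0.371 in ST6GAL1 OE (SD, n = 3). In DU145 4 were called higher and 1 lower, against 4.33% and 4.61% of all genes. By adjusted p alone 4 passed higher and 2 lower, against 10.7% and 9.42% of all genes, and the median of the 20 was -0.05. SNAI2, a repressor of epithelial genes, was called higher (2.01, SE 0.298, adjusted p = 0.000282), from 13, 8 and 9 counts to 43 and 49. The calls on GATA3 (1.78, adjusted p = 0.0185) and OVOL2 (-1.69, adjusted p = 0.0380) were kept by 5 of 10 alternatives each.

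Markers of the prostate layers were read unevenly in the lines. Their counts are to be read against all genes. In PC3 3.61% of all genes were called higher and 1.76% lower, and by adjusted p alone 18.8% passed higher and 18.5% lower. In DU145 4.33% were called higher and 4.61% lower, and by adjusted p alone 10.7% passed higher and 9.42% lower. In PC3 the luminal markers HOXB13 (log2 fold change 0.60, SE 0.0263) and TMPRSS2 (0.70, SE 0.179) were called higher, each in 11 of 12 alternatives, and by adjusted p alone 4 of 7 luminal markers passed higher and 1 lower (CD24, -0.24). Of 4 basal markers tested in PC3, the laminin chain LAMB3 was called lower (-0.67, SE 0.0324), while by adjusted p alone the integrin ITGB4 (0.49, SE 0.0346) and DST (0.14, SE 0.0311) passed higher. The median of the 4 was 0.05. HOXB13 was at 551 ± 23.4 normalized CPM in PC3 control and had at most 2 counts in a DU145 library. KLK3, which encodes prostate-specific antigen, had 0 counts throughout. In DU145 no luminal marker was called among 4 tested, and 1 passed lower by adjusted p alone (CD24, -0.55). Of 5 basal markers tested there, NGFR was called lower (-1.38, SE 0.364, adjusted p = 0.0155), with 3 of 11 alternatives ending the call. By adjusted p alone COL17A1 (0.55) and DST (0.34) passed higher, and the median of the 5 was 0.21.

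Other epithelial markers stood beside the keratins as follows, with the genes named after their values were seen. Of 5 tested, 3 were called higher in PC3, against 3.61% of all genes. They were E-cadherin CDH1 (log2 fold change 1.37, adjusted p = 7.85e-18), the splicing factor ESRP1 (2.07, adjusted p = 1.73e-15) and the claudin CLDN7 (1.82, adjusted p = 2.09e-09). In DU145 the claudin CLDN4 was called higher (1.57) and ESRP1 lower (-1.21), against 4.33% and 4.61% of all genes. By adjusted p alone CDH1 also passed higher there (0.26, adjusted p = 0.0258) and EPCAM lower (-0.35, adjusted p = 0.0219). EPCAM, which marks epithelial cells, was read in all groups, at 16.1 ± 0.247 normalized CPM in PC3 control and 51.7 ± 3.59 in DU145 control (SD, n = 3). Of 9 markers of leukocytes, endothelium and stroma, CD3E had 0 counts, DCN at most 1, LUM at most 3, VWF at most 7 and PTPRC at most 13 in a library. CD68, a marker of macrophages, was read throughout, at 292 to 388 counts in the PC3 libraries and 723 to 981 in the DU145 libraries, and passed the test in neither line with ST6GAL1 OE. COL1A1, a fibrillar collagen, passed lower in PC3 by adjusted p alone (log2 fold change -0.47, SE 0.0683, adjusted p = 3.96e-07). Their summed level was 52.9 to 55.7 normalized CPM in PC3 control, 44.7 to 47.2 in PC3 ST6GAL1 OE, 62.0 to 65.4 in DU145 control and 56.4 to 63.5 in DU145 ST6GAL1 OE. PECAM1 was called higher in DU145 (1.63, adjusted p = 0.0259), from 3, 7 and 6 counts to 12 and 26. The part of these markers in the keratin values was not tested.

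Finally, the genes most like each keratin over the 11 libraries were found by the root mean square difference of their centred log2 CPM profiles, among 10849 genes with a mean of at least 10 normalized CPM in some group. An offset of 0.5 CPM was added before the log, which bears on genes as low as KRT15 and KRT81 in DU145, and KRT17 is left out because the offset sets its profile. This is a description, in which the points share libraries and the difference between lines sets most of the likeness. KRT18 was closest to FLII (0.0404) and SLC39A1 (0.0423), and KRT8 to MCRS1 (0.0502) and MCM5 (0.0539). KRT19 was closest to MAPK11 (0.0568) and NHSL3 (0.0612). KRT7 was closest to RAP1GAP (0.0962) and SEMA4B (0.104), and KRT80 to MICAL3 (0.0740) and again RAP1GAP (0.0935). No gene came as near to KRT15, whose nearest were TMEM200C (0.248) and NEBL (0.257). KRT81 had the most distant neighbours, the activin and inhibin subunits INHBA (0.451) and INHBB (0.453). INHBA was at 137 normalized CPM in PC3 control, 86.0 in PC3 ST6GAL1 OE and 0 in both DU145 groups, and INHBB at 133, 71.2, 0 and 0.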

How the data were processed

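RNA of PC3 and DU145 stable cell lines was sequenced by the authors as 75 bp single reads (TruSeq Stranded mRNA, NextSeq), trimmed with Cutadapt and aligned to hg38 by HISAT2, with featureCounts giving reads per gene. The counts were deposited by the authors as they were, not normalized, by Entrez identifier, of which 97.7% matched a symbol. The annotation, the strand setting and the treatment of multi-mapping reads are not given in the sources used here, so overlapping genes on opposite strands, such as KRT8 with KRT18 and KRT81 with KRT86, may share reads. PC3 and DU145 were deposited as separate tables of raw counts.

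Counts were tested with edgeR 4.0.16 in R 4.3.3 (filterByExpr, TMM, robust quasi-likelihood F test, Benjamini-Hochberg over all genes tested), by line, for DU145 control against PC3 control, and for the difference between the lines over all 11 libraries. All adjusted p-values are from this test unless another is named. The test gives no SE, so each SE was derived as the absolute log2 fold change over the square root of F. A call needed an adjusted p below 0.05 together with a log2 fold change beyond 0.58 in either direction, as in the study. The study's tool, limma-voom, was an alternative because edgeR was the main test for counts here. Normalized CPM used TMM factors over all 11 libraries, and levels per kb used the canonical transcripts of GENCODE on hg38. Whether replicates came from separate cultures is not stated beyond the label of biological repeats, and p-values measure the spread between these samples. Intervals and floors cover counting error only.

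Alternatives were DESeq2 1.42.0, limma-voom (limma 3.58.1), RLE factors, no filter on low counts, at least 10 counts in every library, a replicate block from the label numbers, leaving out single replicates, and adjusted p alone. On simulated counts, 200 of 200 changed genes were recovered in PC3 (3 false calls, 13541 genes), 200 of 200 in DU145 (5, 13607), 196 of 200 for the difference between lines (9, 14503) and 200 of 200 between the control groups (1, 14046). The planted changes were well beyond the fold threshold, in genes above the filter, with the same spread for every gene of a comparison. This recovery therefore does not bear on smaller changes, on low counts or on the uneven DU145 ST6GAL1 OE pair. No replicate pair differed by less than the sampling noise.

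The members and gene lists were chosen with earlier results of these data known, including keratin rows of the study's supplementary tables. Named beside the members were other keratins that were called, per other list the 3 called genes with the largest change in each line, the 2 genes with the profile most like each member's, and ST6GAL1 as a check of the labels. Epithelial and other cell type markers were named outside this rule.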

Additional observations from a re-analysis of the deposited data

Results flagged for a closer look

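Results are given here where the change with ST6GAL1 overexpression differed between PC3 and DU145 in the edgeR interaction test. By adjusted p alone this held for 6 of the 7 keratins tested, against 19.7% of all genes. Of these, only KRT15 and KRT81 also passed the fold threshold and were called. KRT15 (DU145 change with the PC3 change subtracted, -1.97 on the log2 scale) went up in PC3 and down in DU145, and KRT81 (1.97) down in PC3 and up in DU145. KRT7 (0.56) and KRT80 (0.41) fell in PC3, and their values in DU145, on the other side of 0, did not pass the test there. KRT19 (-0.54) went up in PC3 and down in DU145, and KRT18 (-0.27) fell in DU145 and did not pass the test in PC3. DU145 had 2 ST6GAL1 overexpression libraries, which differed from each other by more than any other pair of replicates, and the part of this pair in the differences was not tested beyond leaving out each library. The interaction test pooled its estimate of the spread with the closer PC3 replicates. ST6GAL1 itself was higher in DU145 than in PC3 with overexpression, and its part was not tested either.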

How the results depend on the processing

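The number of keratins called in PC3 was 1, and it was 2 with no filter on low counts, where KRT17 entered, and 6 by adjusted p alone. It was between 1 and 2 when each replicate was left out. In DU145 it was 2, and it was 1 with DESeq2, 5 by adjusted p alone, and between 0 and 3 when each replicate was left out (0 without control replicate 2, 1 without control replicate 1 or ST6GAL1 OE replicate 2, 3 without ST6GAL1 OE replicate 3). Without an ST6GAL1 OE replicate, 1 library is left in that group and is assumed to vary like the DU145 control libraries, which supply the spread. The number for the difference between the lines was 2, and it was 6 by adjusted p alone and between 2 and 3 when each replicate was left out. Between the control groups 6 were called, and 6 to 7 under every alternative. The difference between the lines for KRT8 was between -0.17 and 0.0253 on the log2 scale when each replicate was left out, and so changed sign, at 0.0253 without DU145 ST6GAL1 OE replicate 2. It was not called either way. The cause of these changes was not tested, except that a filter on low counts removed KRT17 by its construction. Over all genes, calls by adjusted p alone were 5056 in PC3 (against 728), 2747 in DU145 (against 1222) and 2949 for the difference (against 1304). By the full rule, calls without DU145 ST6GAL1 OE replicate 3 were 2072 in DU145 and 2270 for the difference, against the same 1222 and 1304.

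Samples with the same replicate number did not deviate together throughout (correlations of -0.016, 0.013 and 0.045 in PC3, and of 0.062 and 0.237 in DU145), so the numbers were not taken as pairs. With the replicate number as a block 1 keratin was called in PC3, 2 in DU145, 2 for the difference and 6 between the control groups, and calls over all genes were 740, 1517, 1452 and 9197. The difference between the lines for KRT7 had an adjusted p of 0.0587 with the block, the highest of a range from 5.77e-10 over 17 alternatives.

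The limits of these values are counts and libraries. KRT15 and KRT81 in DU145 rest on at most 119 counts in a library and on 2 overexpression libraries, KRT17 rests on at most 20 counts, and KRT5 was not detectable at this depth. Reads that KRT81 shares with KRT86 could not be assigned from the tables.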
